A study of Drosophila melanogaster with 2 samples.

Results

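The Mediator complex and the general transcription factors are the proteins through which RNA polymerase II is brought to promoters and started, and here their own genes were examined as sites of Snail-eGFP signal. They were taken from the dm6 annotation as the coding genes whose symbol is MED or Taf followed by a digit or begins with TfII, together with kto, skd, Cdk8, CycC, Tbp, Trf and Trf2. These 56 genes, of 13945 coding genes on the 6 main chromosome arms, comprise 29 Mediator genes and 27 general transcription factor genes. Chromatin came from whole Drosophila melanogaster embryos aged 0 to 24 h, from transgenic flies of the sna-GFP strain that make a fusion of Snail with eGFP, and was fragmented by sonication to 200 to 800 bp. The submitters' description states that the precipitation used an antibody against GFP, whereas the antibody field reads sna, and cells with and without the fusion protein were sampled together. All data are from 1 group of embryos with 2 biological replicates, no group without the fusion was analysed here, and so no test between groups was possible. A promoter peak is a peak of the authors' pooled list, called on both replicates together, whose summit lies within 500 bp of an annotated start site of the gene itself. The peak signal is the authors' own value, of a scale that no source used here states, and as no file gives read counts the sequencing depth is unknown.

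Mediator bridges sequence-specific factors and polymerase: its head and middle modules contact the enzyme, its tail is a docking surface for activators, and a detachable kinase module made of Cdk8, Cyclin C and the products of kto and skd can keep polymerase away. TFIID, built from TBP and the TBP-associated factors (TAFs), recognises the core promoter, after which TFIIA, TFIIB, TFIIF and TFIIE help to assemble and open the complex. These proteins are used by nearly all cells, whereas Snail, a zinc-finger repressor, is made in the prospective mesoderm and in some neural precursors.

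Most of the strongest peaks lay between genes, and the sequence about their summits is shown because the pentamer CGATA recurs there. CGATA is the core recognised by the insulator protein BEAF-32 and is also part of TATCGATA, the DNA replication-related element (DRE). The 8 stretches belong to the strongest promoter peaks whose summit lay outside every annotated gene, MED9 excepted. Each holds up to 100 bases on either side of the summit, is ended where an annotated gene begins, and is read 5′ to 3′ on the strand of the named gene, from the NCBI RefSeq copy of the Release 6 (dm6) assembly. Capitals mark CGATA or its complement TATCG. Taf10b and Taf10 are transcribed away from each other and share a summit, so the whole gap between them is given once, on the strand of Taf10b. The coordinates are chr3R:10761033-10761147 (minus strand) for MED7, chr3R:5654888-5655088 for MED27, chr3R:6380329-6380466 for TfIIFalpha, chr3R:25476916-25477002 for MED28, chrX:17842035-17842160 for Taf9, chr2L:2767846-2767889 (minus strand) for Taf10b and Taf10, chr3L:19836443-19836613 for kto and chr3R:20008602-20008802 for MED25.
MED7: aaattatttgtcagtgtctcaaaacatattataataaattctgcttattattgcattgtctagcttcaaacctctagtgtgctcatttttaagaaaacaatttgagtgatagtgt
MED27: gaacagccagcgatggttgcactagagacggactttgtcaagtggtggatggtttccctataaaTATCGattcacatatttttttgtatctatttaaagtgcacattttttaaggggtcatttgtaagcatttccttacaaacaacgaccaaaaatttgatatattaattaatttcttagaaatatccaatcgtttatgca
TfIIFalpha: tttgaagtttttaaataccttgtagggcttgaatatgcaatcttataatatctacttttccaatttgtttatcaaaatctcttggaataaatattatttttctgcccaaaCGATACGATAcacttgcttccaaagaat
MED28: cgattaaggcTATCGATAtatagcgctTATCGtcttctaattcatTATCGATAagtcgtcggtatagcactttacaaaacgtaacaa
Taf9: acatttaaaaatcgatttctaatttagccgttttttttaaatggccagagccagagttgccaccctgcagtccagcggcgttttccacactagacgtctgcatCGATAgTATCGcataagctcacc
Taf10b and Taf10: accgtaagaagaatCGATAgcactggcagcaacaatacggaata
kto: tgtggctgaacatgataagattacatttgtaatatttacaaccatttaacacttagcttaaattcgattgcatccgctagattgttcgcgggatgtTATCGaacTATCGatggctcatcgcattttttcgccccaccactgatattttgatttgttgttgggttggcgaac
MED25: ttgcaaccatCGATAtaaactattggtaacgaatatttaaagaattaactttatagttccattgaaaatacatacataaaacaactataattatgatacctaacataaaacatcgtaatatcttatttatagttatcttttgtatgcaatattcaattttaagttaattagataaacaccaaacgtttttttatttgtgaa

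Promoter peaks were found at 23 of the 56 genes (41.1%), among them genes of the Mediator middle module, of the kinase module and of TFIID, while none of the 3 TFIIA genes nor TfIIB had one in the pooled list. Over all coding genes the share was 27.5% (3831 of 13945). The Mediator genes and the general transcription factor genes had almost the same share, 12 of 29 (41.4%) and 11 of 27 (40.7%). Taf10 and Taf10b share a peak, so the strongest promoter peaks of the 23 genes are 22 distinct peaks. Weaker second promoter peaks of Taf7, MED25 and skd are not among these 22. Over the 23 genes the strongest promoter peak had a median signal of 145.0 (quartiles 99.65 and 232.4, range 65.92 to 668.6), against a median of 139.2 over the coding genes that had a promoter peak. Of the 23 genes 14 (60.9%) reached the pooled list's median signal of 108.6, against 66.8% of those coding genes. The genes with peaks thus exceeded the background in number, and their signals had a median close to that of other promoters.

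**Figure D1:**
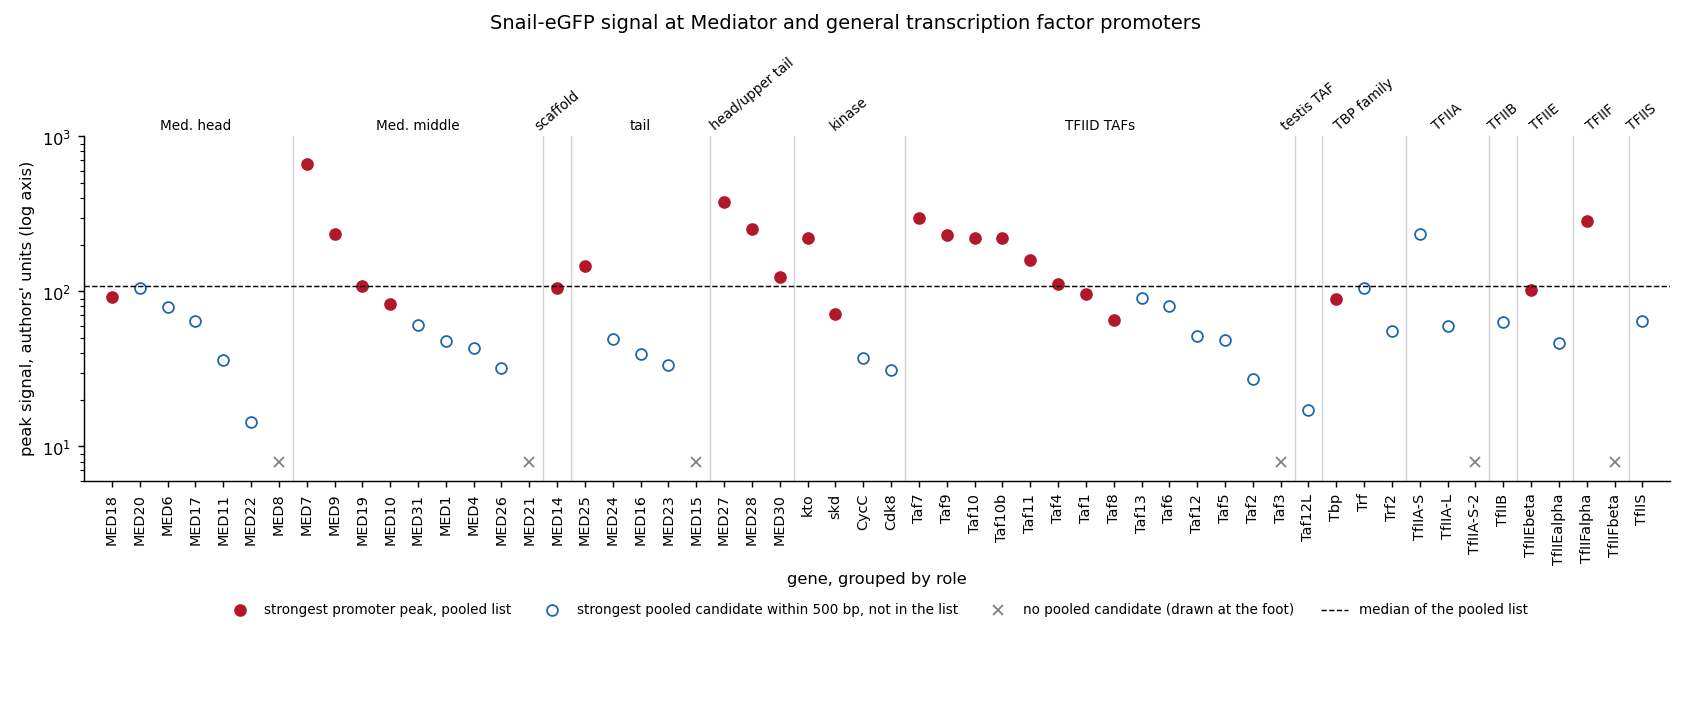
Strongest promoter signal of each of the 56 genes, grouped by role, on a log axis in the authors' units. Filled points are promoter peaks of the pooled list, open points the strongest pooled candidate region within 500 bp of genes without one, crosses genes with no candidate, and the dashed line is the list's median of 108.6; MED7 is the highest filled point at 668.6 and TfIIA-S the highest open one at 233.7.

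In the Mediator middle module, 4 of 9 genes had a promoter peak, against 27.5% of coding genes. MED7, whose product forms the central hinge of this module with MED21, had the strongest peak of all 56 genes, with a pooled signal of 668.6, above 99.6% of the list's peaks. It had signals of 412.1 in replicate 1 and 248.1 in replicate 2. The peak covered 10760931 to 10761307 on 3R, with its summit 71 bp upstream of MED7 and within 500 bp of the divergent condensin gene Cap-H2. MED9, a small middle subunit, followed with 233.4 (125.4 in replicate 1 and 113.7 in replicate 2), but its summit lay only 26 bp from the start of Nup75, a nuclear pore gene, against 89 bp from its own. MED19, which in flies links Mediator to Hox and GATA factors, had a peak of 108.1 with its summit 165 bp downstream in its own 5′ UTR. The fourth, MED10, had a peak of 83.58 from 16231727 to 16232242 on 3L, nearest to the start of PDCD-5 at 53 bp. The range within the module was thus from the highest signal of the set to that of MED10, above 29.2% of the list's peaks.

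The genes of MED27, MED28 and MED30, subunits that different structures place at the head or at the upper tail, all had a promoter peak. The MED29 gene ix, which the naming rule does not take, had none. Over all coding genes the share was 27.5%, and 3 genes are too few for more than a description. MED27 had a signal of 377.8 on 3R from 5654823 to 5655168 (243.6 in replicate 1 and 136.9 in replicate 2), higher than all but MED7, with the start of the divergent gene elm nearer to the summit, at 127 bp, than its own at 151 bp. MED28 had 253.0 on 3R from 25476832 to 25477078, with 147.4 in replicate 1 and 115.9 in replicate 2. Its summit, 18 bp upstream of MED28, lies in a gap of 87 bases between it and CG4553, and that gap holds 2 copies of TATCGATA. MED30 had 124.3 with the summit 1 bp upstream, and shares the site with the divergent DNA polymerase gene Rev1. In the head module proper only MED18, which forms the movable jaw with MED20, had a promoter peak (92.79), 1 of 7 genes. In the tail, the docking surface for activators, MED25 alone of 5 genes had a promoter peak. Its stronger summit, of 145.0 (66.63 in replicate 1 and 66.17 in replicate 2), lay 245 bp upstream. That summit was nearer to the divergent gene Hs6st, at 190 bp. A weaker listed summit of 88.83 lay 23 bp downstream of the start of MED25. MED14, the scaffold that joins the modules, had a peak of 105.0 with its summit 81 bp downstream in its 5′ UTR. The head, tail and scaffold peaks were therefore all below those of MED7, MED27 and MED28.

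The kinase module divided into a pair of genes with a promoter peak and a pair without. Over all coding genes the share was 27.5%, and so few genes allow only a description. The gene kto, which encodes Med12, had a peak of 221.6 on 3L from 19836450 to 19836609, with 147.1 in replicate 1 and 73.35 in replicate 2. Its summit lay 71 bp upstream with no other coding start within 500 bp, so that the peak could be counted to kto alone. The gene skd, which encodes Med13 and acts with kto in the patterning of the eye and wing discs, had a peak of 71.15 on 3L from 21026209 to 21026724. That peak lay in an intron of skd, 263 bp upstream of a start site, above 18.1% of the list's peaks only, and it was in neither replicate's own thresholded list (candidate signals of 46.83 in replicate 1 and 33.07 in replicate 2). The kinase gene Cdk8 and its cyclin gene CycC had only candidate regions, of 31.29 and 37.01, that did not reach the list. Both had a listed peak within 5000 bp, of 123.2 and 94.96, nearest in each case to another gene, I-2 and Rrp6.

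Of the 14 TAF genes that encode TFIID subunits or their close forms, 8 had a promoter peak, with a median signal of 190.7. Over all coding genes the share was 27.5%, and those with a promoter peak had a median of 139.2. Taf7, whose product binds and restrains Taf1, had the highest, 296.7 on 3R from 7907379 to 7907651 (169.3 in replicate 1 and 133.0 in replicate 2). That summit lay in the 5′ UTR of Taf7, 129 bp downstream of its start and 99 bp from that of the divergent gene EMC1. A weaker listed summit of 91.22 lay 25 bp downstream of an own start site of Taf7. Taf9, a histone-fold subunit shared with the SAGA complex, had 231.3 on X from 17841995 to 17842220 (165.0 in replicate 1 and 74.23 in replicate 2), 26 bp upstream and with no other coding start within 500 bp. The head-to-head genes Taf10 and Taf10b, whose fly products serve TFIID and SAGA, shared a peak of 222.5 on 2L from 2767611 to 2768126 (118.0 in replicate 1 and 99.02 in replicate 2). Its summit lay 21 bp from the start of Taf10 and 24 bp from that of Taf10b, so the signal could not be divided between them. Taf11, which pairs with Taf13, had 158.8, but the summit was 2 bp from the start of und and 229 bp from its own. The remaining peaks were those of Taf4 at 111.4, in an intron by an internal start, of Taf1, the largest subunit, at 96.76, and of Taf8, the partner of Taf10, at 65.92, the lowest of the 23. Some histone-fold pairs of TFIID were compared by the pooled list. Taf8 and Taf10 both had a promoter peak, whereas Taf9 had one and Taf6 none, Taf4 had one and Taf12 none, and Taf11 had one and Taf13 none. The split depends on the list, as replicate 1 held a peak at Taf6 (41.97) and at Taf13 (55.52), and the replicate-pair list held that of Taf13 (91.14). So few pairs allow only a description.

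Of the TBP family only Tbp had a promoter peak. Its peak had a pooled signal of 89.28 on 2R from 21687483 to 21687998, 99 bp upstream, which is above 34.4% of the list. Replicate 1 listed it with 91.44, in replicate 2 it was only a candidate of 45.72, and the list made from the pair of replicates did not hold it. Trf, which in flies serves RNA polymerase III genes with Brf, and Trf2, which starts a class of promoters without a TATA box, had candidates of 105.5 and 55.46. The candidate of Trf is also that of the head-to-head head-module gene MED20. It was a listed peak in replicate 2 (55.43) and in the replicate-pair list (105.5), but not in the pooled list.

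Among the other general factors, TfIIFalpha, the large TFIIF subunit that travels with polymerase, had a peak of 283.3 on 3R from 6380239 to 6380500 (175.0 in replicate 1 and 85.22 in replicate 2). Its summit lay 66 bp upstream of TfIIFalpha, within 500 bp of the divergent gene CG1024. TfIIEbeta, the small subunit of TFIIE, had one of 102.5 with the summit 136 bp downstream in its 5′ UTR. Their partners TfIIFbeta and TfIIEalpha had none, so neither complex had a peak at both of its genes. As only 27.5% of coding genes had a promoter peak, a gene without one is the more common case. So few complexes allow only a description. TfIIB, which sets polymerase at the start site, and TfIIS, an elongation factor that the naming rule also takes, had candidates of 63.81 and 64.76.

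TfIIA-S, which encodes the small TFIIA subunit, had the highest signal among the 33 genes without a listed peak. A pooled candidate from 23890874 to 23891389 on 3R, 72 bp upstream of its start, had a signal of 233.7, above 85.1% of the pooled list's peaks. Replicate 1 gave 127.3 and replicate 2 gave 125.1 there, near the values at MED9. Its irreproducible discovery rate (IDR), the authors' measure of how well a region's rank repeats, had a −log10 value of 4.67. That is past the limit of 2 (an IDR of 0.01), below which no candidate was listed. The region was in none of the 4 thresholded lists, and counted to the set it would give 24 genes. Over the genome 139 of 4360 candidates past that limit were unlisted in the same way, 80 of them on 3R.

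The 23 genes were about as reproducible between the replicates as other promoters. For 12 genes the strongest promoter peak was matched by a peak in the own list of replicate 1 and in that of replicate 2 (52.2%), against 53.0% of coding genes with a promoter peak. These 12 were MED7, MED27, Taf7, TfIIFalpha, MED28, MED9, Taf9, Taf10, Taf10b, kto, MED25 and Taf4, with a median pooled signal of 232.4, against 96.76 for the other 11. An overlap of 1 bp was enough for this match. When at least 50% of the pooled peak had to overlap, 11 genes were matched in both replicates, and with a replicate summit within 100 bp 9 were. No share over coding genes is given for these stricter settings. In replicate 1 only were MED30, MED19, MED14, TfIIEbeta and Tbp, and in replicate 2 only Taf11 and Taf1. The peaks of MED18, MED10, skd and Taf8 were in neither list, 17.4% of the 23 genes against 19.7% of the coding genes. For MED18 the candidate signals were 55.05 in replicate 1 and 38.23 in replicate 2, for MED10 44.86 and 33.31, and for Taf8 34.48 and 39.69. Of these 4 genes, MED18 and MED10 were held by the replicate-pair list, and skd and Taf8 by the pooled list alone among the 4 thresholded lists.

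Counted in each replicate's own list, 20 genes (35.7%) had a promoter peak in replicate 1, against 21.7% of coding genes, and 16 (28.6%) in replicate 2, against 16.8%. The replicate-pair list gave 23 genes (41.1%), against 25.3%, and differed from the pooled list by holding Taf13, MED20 and Trf but not Tbp, skd and Taf8. Mediator genes had 9 of 29 in replicate 1 and 7 of 29 in replicate 2, and general transcription factor genes 11 of 27 and 9 of 27. The share over the 56 genes was above that of all coding genes in each list. Over the 22 distinct peaks replicate 1 and replicate 2 candidate signals gave a Spearman rho of 0.72, against 0.79 over 2751 promoter peaks of coding genes. This is a description across peaks, which come from the same libraries and are not replicates. Replicate 1 had the larger value at 19 of 22 peaks and at 2229 of the 2751, and as each list has its own scale, this does not compare the amount of bound protein.

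**Figure D2:**
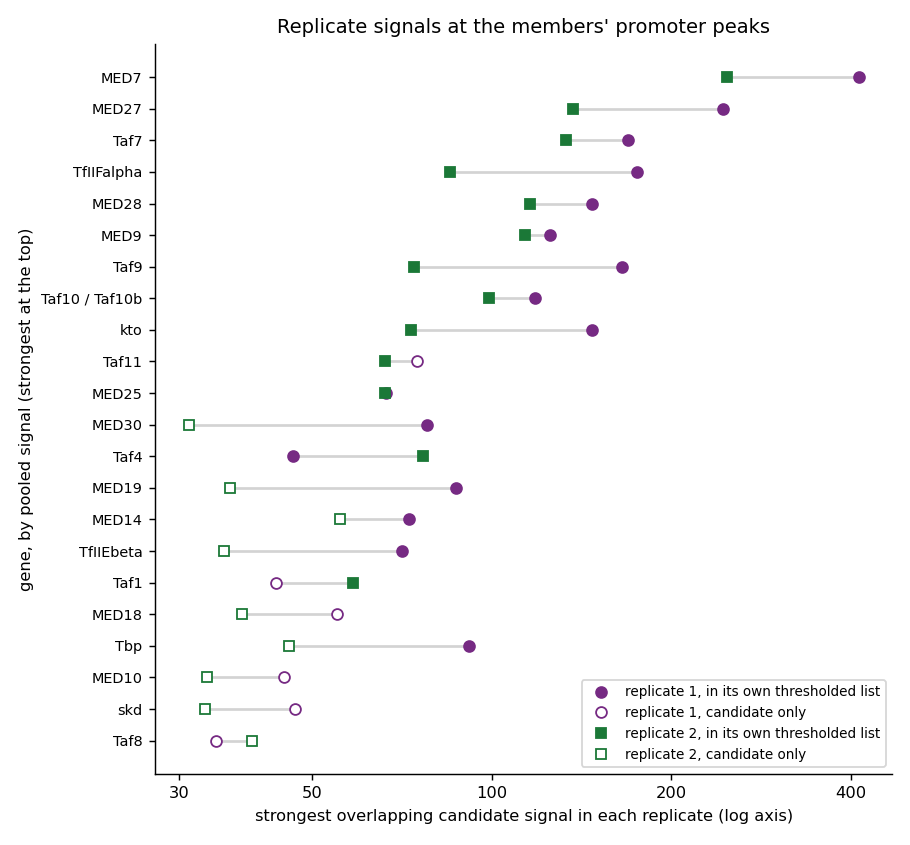
Candidate signals of replicate 1 (circles) and replicate 2 (squares) at the 22 distinct strongest promoter peaks of the genes. They are ordered by pooled signal with the strongest at the top, on a log axis in the authors' units. Filled symbols are peaks of that replicate's own thresholded list; the 11 strongest peaks except that of Taf11 are filled in both replicates, and the lowest rows, such as skd and Taf8, are open.

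For the 33 genes without a promoter peak the files still list weaker regions. A pooled candidate within 500 bp was present at 27 of them (81.8%), against 66.6% of coding genes without a promoter peak, with a median strongest signal of 49.71, against 36.36. With the listed peaks, 50 of the 56 genes (89.3%) had a candidate, against 75.8% of coding genes, so that a candidate by itself was common. After TfIIA-S and the shared region of MED20 and Trf, the highest were Taf13 at 91.14, which replicate 1 (55.52) and the replicate-pair list held as a peak, and Taf6 at 80.77, a peak of replicate 1 (41.97). In the Mediator head, MED6 had 79.53, MED17, its central scaffold, had 64.61, MED11 had 36.23 and MED22 had 14.37. The middle genes followed with 60.34 for MED31, 47.88 for MED1, a subunit that contacts nuclear receptors in mammals, 43.46 for MED4 and 32.11 for MED26. The tail genes MED24, MED16 and MED23 had 49.71, 39.29 and 33.64. Among the general factors, TfIIA-L, the precursor of the large TFIIA subunits, had 60.10 and TfIIEalpha had 46.79. Of the TAF genes, Taf12 had 51.95, Taf5, a scaffold of TFIID with WD40 repeats, had 48.46, Taf2, which contacts the initiator with Taf1, had 27.17 and the testis paralog Taf12L had 17.27. Except for TfIIA-S, all of these lay below the pooled list's median of 108.6. Most were also below 65.92 at Taf8, the lowest among the genes' strongest promoter peaks. That value is no lower bound of the list, as a weaker listed summit of skd within 500 bp had 15.23.

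No pooled candidate lay within 500 bp of MED8, MED15, MED21, Taf3, TfIIA-S-2 and TfIIFbeta. Taf3, on chromosome 4, nonetheless had a thresholded peak of 72.49 in replicate 1 alone. A single replicate also gave a candidate at MED8 (27.56, replicate 1), TfIIA-S-2 (7.301, replicate 2) and TfIIFbeta (36.36, replicate 2). MED15, a tail subunit that binds activators, and MED21 had no candidate in either replicate. As the depth is unknown, this says that none was detectable, not that the protein was absent there.

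Within 5000 bp of a start site, 38 of the 56 genes (67.9%) had a pooled summit, against 47.3% of coding genes. At the 15 genes that had a summit in this range without a promoter peak, the strongest one was in every case nearest to the start of another gene. The highest was 522.9 within the range of Taf5, at CG30015. Next came 311.4 for MED31, at Dlip2, and 269.4 for TfIIB, at KdelR. Those of MED16 (189.6, Vps35), MED4 (177.3, Cdc27), MED8 (171.7, CG8929), MED11 (168.4, Atg3) and MED6 (168.2, Snap24) were lower. TfIIEalpha (160.3, Sugb), TfIIS (139.0, ck), MED17 (135.4, Arp5) and MED23 (116.4, asrij) followed, and Taf13 had the lowest, 77.87 at mRpS18B. The wider count of the 56 genes therefore includes neighbours' promoters, and a summit counted only to the nearest start site left 18 genes (32.1%), against 23.0% of coding genes. Just inside the limit of 500 bp, the farthest summit was the weaker of skd, 476 bp upstream with a signal of 15.23. Just outside lay a summit 561 bp upstream of skd with a signal of 239.8, another 563 bp upstream of MED25 with 62.56, and one 631 bp upstream of MED19 with 126.6. Among the genes without a promoter peak the nearest outside were those of MED8 at 641 bp and TfIIS at 781 bp. For skd the strong peak beyond the limit was therefore not counted, and the one described above was.

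Many of the 56 genes start beside a head-to-head neighbour. A start of another coding gene on the opposite strand lay within 500 bp of an own start site at 33 of them (58.9%), against 27.8% of coding genes. Of these 33 genes 15 had a promoter peak (45.5%), against 52.6% of coding genes with such a neighbour. Of the 23 without such a neighbour 8 had one (34.8%), against 17.8%. Thus over the 56 genes together the share was below the background for the head-to-head genes and above it for the others. The head-to-head arrangement was more frequent in the set and goes with a higher share over all coding genes, and its part in the count of 23 was not tested. For Mediator genes the shares were close to those of coding genes, 10 of 19 with such a neighbour (52.6%) and 2 of 10 without (20.0%). Those 2 were kto and MED14. For general transcription factor genes they were 5 of 14 (35.7%) and 6 of 13 (46.2%), so the differences from the background lay mainly in these genes. The median signal was 222.5 at head-to-head genes of the set and 103.8 at its other genes, against 152.9 and 126.0 over coding genes.

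**Figure D3:**
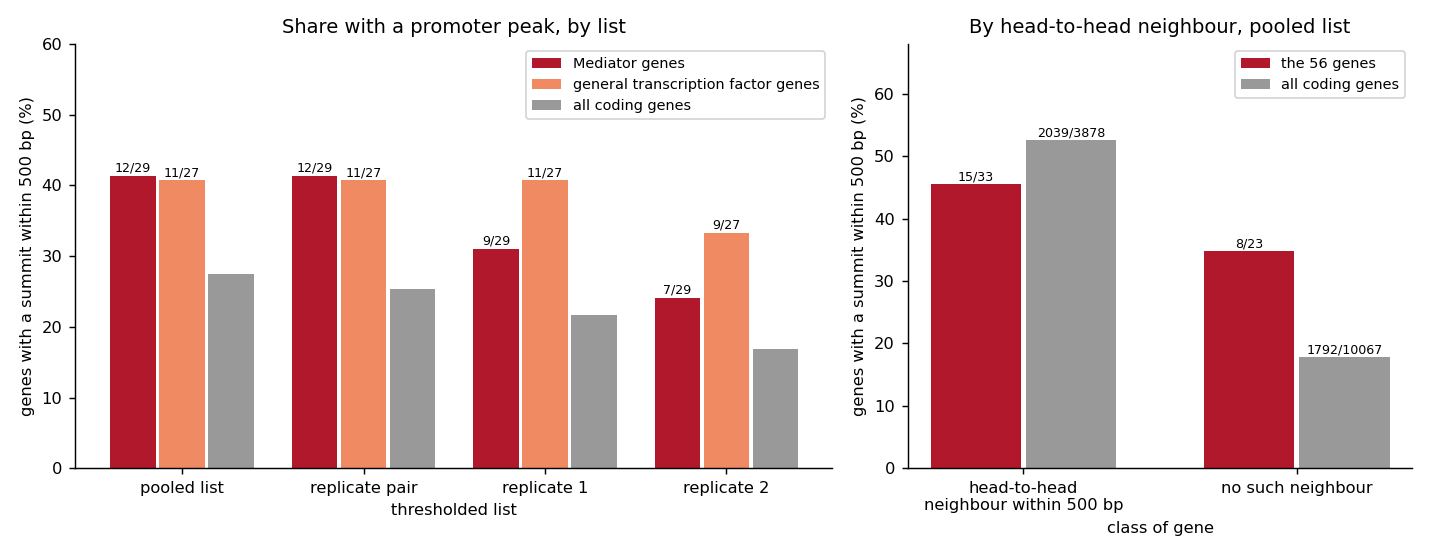
Left, percent of Mediator genes, general transcription factor genes and all coding genes with a summit within 500 bp of an own start site, in each of the 4 thresholded lists, with counts above the bars. Right, the same for the pooled list by whether a coding start on the opposite strand lies within 500 bp; the 56 genes are below all coding genes with such a neighbour (45.5% and 52.6%) and above them without it (34.8% and 17.8%).

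Summits sat close to the start sites, mostly just upstream. Of the 23 genes 18 (78.3%) had the strongest summit upstream of their own start, against 75.3% of coding genes with a promoter peak, and the median position was 26 bp upstream, against 62 bp upstream. Among these strongest summits the farthest upstream was that of skd, at 263 bp, and the farthest downstream that of MED19, at 165 bp. The 5 summits downstream were those of Taf7, MED19, MED14, TfIIEbeta and Taf1, all in the gene's own 5′ UTR. At 7 genes the strongest summit was nearest to another gene's start. These were MED27 (elm), Taf7 (EMC1), MED9 (Nup75), Taf10b (Taf10), Taf11 (und), MED25 (Hs6st) and MED10 (PDCD-5). Taf7, MED25 and skd each had 2 summits within 500 bp, and the other 20 genes had 1. In the set the stronger peaks were mostly narrower than the median width of the authors' list, 516 bp. The 8 distinct peaks under that width had signals of 221.6 to 668.6, against 65.92 to 222.5 for the 14 at that width. The same held over the coding genes' promoter peaks in the medians, 283.6 for 779 narrower peaks against 109.2 for 1989 at the median width. The 3 wider ones, none of them in the set, had a still higher median of 527.2.

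**Figure D4:**
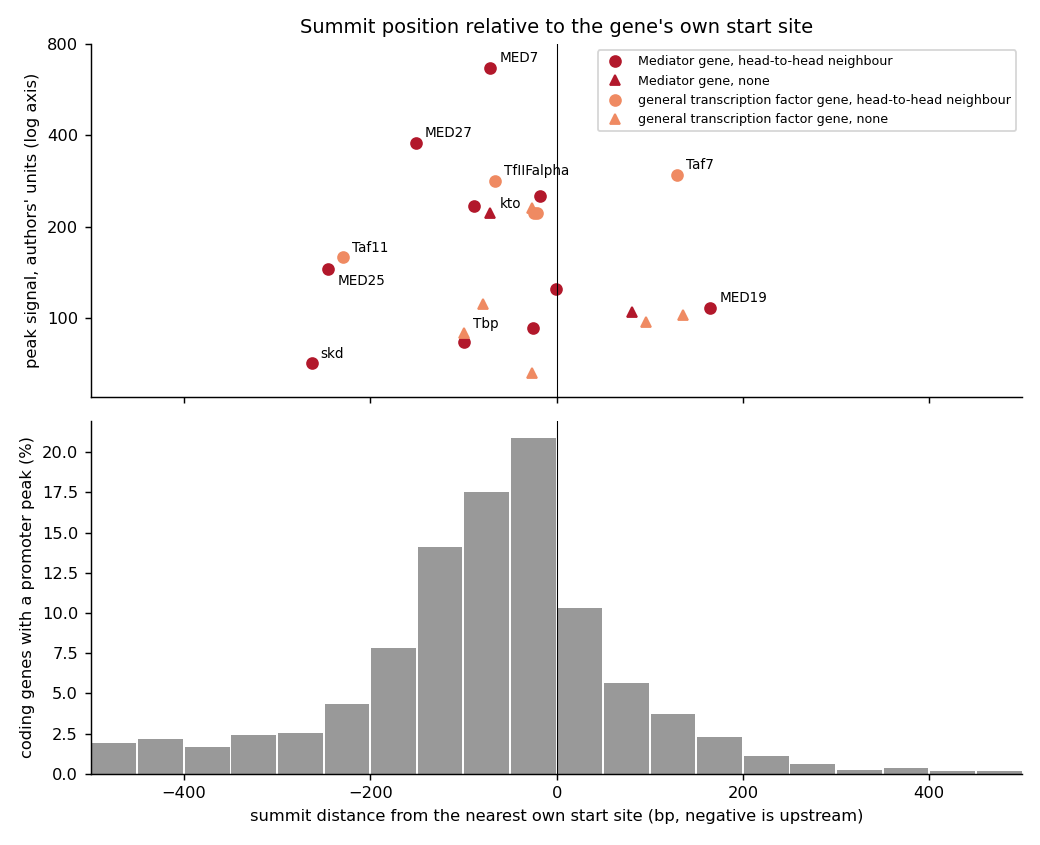
Top, signal (log axis, authors' units) of the strongest promoter peak of the 23 genes against the distance of its summit from the nearest own start site in bp, negative being upstream, with circles for genes with a head-to-head neighbour within 500 bp and triangles for the others. Bottom, the distribution of the same distance over the 3831 coding genes with a promoter peak; 18 of the 23 genes and 75.3% of the coding genes lie to the left of the start.

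The sequences printed above carry CGATA in 7 of the 8 stretches, and it was the most frequent of the 8 motifs searched. Within 100 bp of the summit, on either strand, CGATA was present at 16 of the 22 distinct peaks (72.7%), against 67.5% of 2771 distinct promoter peaks of coding genes. At MED7 the copy lay 79 bp from the summit inside the transcribed region, outside the stretch shown. The longer TATCGATA, which contains CGATA on both strands, was at 5 peaks (22.7%), those of Taf7, MED28, MED9, MED18 and Tbp, against 24.3%. CAGGTG, the E-box that Snail is known to bind, was at none of the 22 (0%), against 5.85%. Each of these differences from the background amounts to fewer than 2 of the 22 peaks. No match means only that these letters are not in this window.

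Signal went with CGATA in the set as it did elsewhere. The 16 distinct peaks with CGATA had a median signal of 222.1 (65.92 to 668.6), and the 6 without it, at Taf4, MED19, TfIIEbeta, Taf1, MED10 and skd, a median of 99.65 (71.15 to 111.4). Over the coding genes the medians were 163.7 for 1871 peaks with it and 96.77 for 900 without. Every distinct peak of the set above 111.4 held it, whereas over coding genes peaks without it reached 690.4. Among the other motifs, TATAAA was at 31.8% of the 22 peaks against 24.3%, TCAGT (initiator) at 22.7% against 30.6%, and GAGAG (bound by GAGA factor) at 13.6% against 23.3%. CAGCTG was at 9.09% against 18.8%. The intronic peak of skd alone held 10 overlapping or separate copies of GAGAG.

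At the 5′ ends of the genes, rather than at summits, motif 1 was found at a larger share of the 56 genes than of all coding genes. GGTCACAC, the form of motif 1 searched here and the site of the factor M1BP, was within 100 bp of the 5′ end of 13 of the 56 genes (23.2%), against 6.76% of coding genes. It was at 4 of the 23 genes with a promoter peak (17.4%), namely Taf4, Taf1, MED10 and MED19, against 9.76% of coding genes with one. It was at 9 of the 33 without (27.3%), against 5.62% of coding genes without a promoter peak. The order in the set was thus opposite to that over coding genes, but it rests on 4 and 9 genes and is only a description. Those 9 were Trf, MED20, Taf5, MED15, MED8, MED23, MED24, MED11 and MED22, of which Trf and MED20 are neighbours. CGATA showed the same order in the set as over coding genes, at 17 of 23 5′ ends with a promoter peak (73.9%) and 12 of 33 without (36.4%), against 66.1% and 29.3% over coding genes. None of the 4 genes with motif 1 and a promoter peak had CGATA near the summit.

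**Figure D5:**
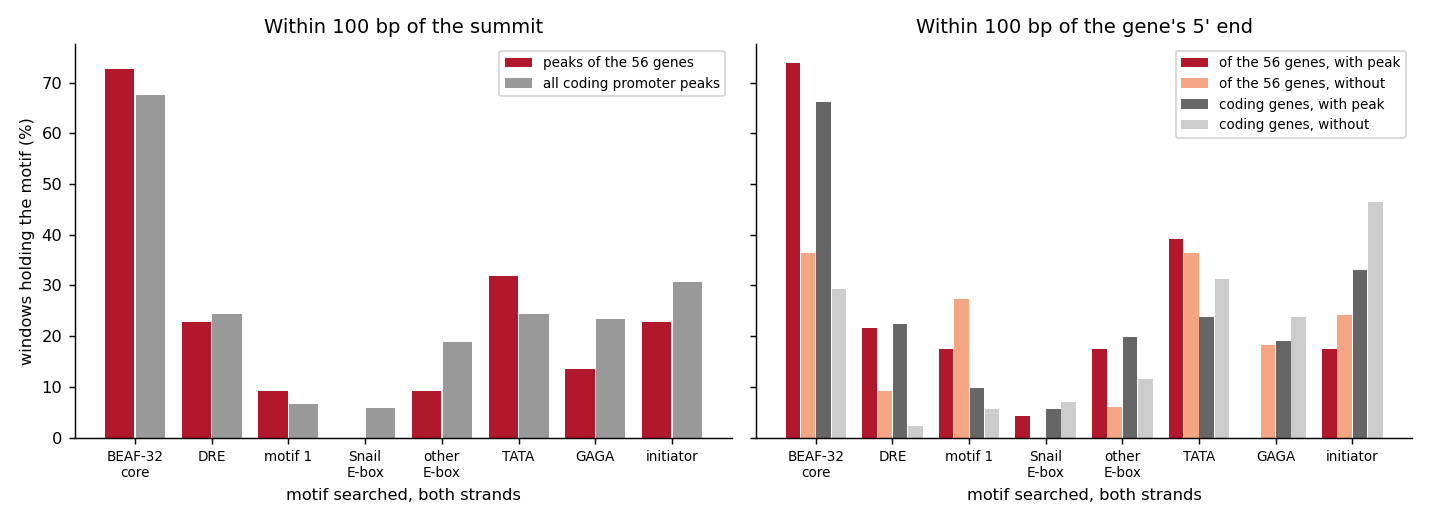
Percent of windows that hold each of the 8 motifs on either strand. Left, within 100 bp of the summit for the 22 distinct peaks of the set and 2771 promoter peaks of coding genes; right, within 100 bp of the 5′ end for genes with and without a promoter peak, where CGATA (BEAF-32 core) is higher with a peak (73.9% and 36.4% in the set) while motif 1 is lower with a peak in the set (17.4% and 27.3%) and higher with one over coding genes (9.76% and 5.62%).

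Other genes of the transcription machinery, taken by symbol, gave counts on the same scale. TFIIH, the helicase and kinase complex that opens promoter DNA, had a promoter peak at 7 of 10 genes, with a median signal of 203.5, led by mrn at 378.4 and Tfb4 at 273.1. RNA polymerase II subunit genes had one at 6 of 13, median 160.1, with Polr2J highest at 226.3. Pausing and elongation factor genes had one at 8 of 10, median 102.3, and SAGA genes at 8 of 13, median 129.8. Of the RNA polymerase III factors that work with TBP or Trf, Brf had a peak of 162.7 and Bdp1 none. Of 4 testis paralogs of TAFs only mia had one (136.3), and ix, the fly MED29 gene that the naming rule does not take, had none. By these counts the 23 of 56 (41.1%) lay below the shares of TFIIH (70.0%), of elongation genes (80.0%) and of SAGA (61.5%). They were also below those of polymerase II subunit genes (46.2%) and of the pair Brf and Bdp1, and above that of the 4 testis paralogs. The share over all coding genes was 27.5%, and those with a promoter peak had a median signal of 139.2. These lists were too short for more than a description.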

How the data were processed

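The authors deposited peak lists for each replicate, for the pooled replicates and for the replicate pair. Signal values are the authors' own enrichment values, deposited with no scale. The q value and IDR columns are −log10 values made by the authors, per the file layout. Per the labels, the build is dm6. The sources used here name no aligner or peak caller. Depth is unknown, and samples of the control experiment were not analysed here.

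Annotation was Ensembl release 115, and bases came from NCBI's copy of Release 6. Summits were matched to every annotated start site of a coding gene on the 6 main arms, with Python 3.11.15, numpy 2.4.6 and pandas 2.3.3. Replicate overlap was 1 bp or more. Matching and motif search were tested on simulated data. The genes, lists, motifs and roles were chosen with earlier results of these data known, and roles and modules come from general knowledge. Named in full are the 10 strongest promoter peaks, the kinase module and TBP family, genes without a promoter peak and those in neither replicate's list. Other members and genes of related lists were named after their values were seen. In the related lists RpII215, rye and Ada1 matched no gene. Members are genes, not replicates, so no test was made and no p-value given.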

Additional observations from a re-analysis of the deposited data

Results flagged for a closer look

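The candidate region at TfIIA-S drew attention because it lies outside every thresholded list and yet has a pooled signal of 233.7, above those of all other candidates at genes of the set without a listed peak. It overlaps candidates of 127.3 in replicate 1 and 125.1 in replicate 2, and its −log10 IDR of 4.67 is past the limit of 2. No control samples were analysed here. The deposited notes state that the thresholded lists were derived with 1 input more than the ranked lists, and the content of that input was not analysed here. Whether it bears on this region was not tested.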

How the results depend on the processing

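Against 23 of the 56 genes, 22 (39.3%) had a promoter peak with the narrower of the distance limits tried (24.6% of coding genes) and 25 (44.6%) with the wider (30.2%). Gene 5′ ends only gave 22 (39.3%, against 25.7%), peaks that cover a start site 21 (37.5%, against 23.4%) and the nearest start only 18 (32.1%, against 21.0%). After seeing the data, candidates past the IDR limit (24 genes, 42.9%, against 28.0%) and the union of the 4 lists (28 of the 56 genes, against 30.4%) were added. With each replicate's list alone the count was 16 to 20, for Mediator genes 7 to 9, for general transcription factor genes 9 to 11, and the median signal was 80.92 to 104.7. Within 5000 bp it was 30 to 35 (53.6% and 62.5%, against 31.9% and 39.7% of coding genes). With peaks at or above the list's median signal, 14 of the 56 genes had one, against 18.4% of coding genes: 7 Mediator and 7 general transcription factor genes, with a median of 226.9, higher by construction. Counting a summit only to the nearest start gave a median of 106.6 and, within 5000 bp, 18 genes (23.0% of coding genes). CGATA was at 59.1% of peaks within 50 bp of the summit and 77.3% within 200 bp, and CAGGTG at 0% and 13.6%. No share over coding genes is given for these windows, so the values cannot be read as high or low. No paired analysis was possible because there is 1 group. The precision is limited by 2 replicates and unknown depth, and a weak signal from few cells cannot be told from none.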
